A study of Caenorhabditis elegans with 2 samples.

Results

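The hedgehog-related ligand genes of Caenorhabditis elegans were examined for binding of the GATA factor ELT-1. They are the protein-coding genes named wrt, grd or grl with a number, together with hog-1 and qua-1. The annotation holds 59 of them among 19973 protein-coding genes on the nuclear chromosomes, namely 10 wrt (warthog), 16 grd (groundhog) and 31 grl (ground-like) genes, hog-1 and qua-1 (quahog). The rule uses the names alone, although the set of families was picked with earlier results of these data known. Of the 59 genes, 12 stand next to other members in 5 groups of neighbours. Each such group was treated as 1 locus, which left 52 loci.

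The nematode has no classical Hedgehog protein and no working Smoothened branch of that pathway, but it has large families of secreted proteins related to Hedgehog. Warthog, groundhog and ground-like proteins carry different N-terminal signalling-type domains, and some members also carry the C-terminal Hog domain, which in Hedgehog proteins cuts the precursor and attaches cholesterol. Patched and patched-related membrane proteins of the worm are the counterparts of the Hedgehog receptor. Many genes of these families are known to be expressed in the epidermis and its seam cells and to act in molting and cuticle formation, and ELT-1 is the GATA factor that sets epidermal fate in the embryo.

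ChIP-seq was done on whole L2 larvae of strain OP354, genotype unc-119(tm4063) III; wgIs354, with both sexes pooled. The wgIs354 insertion makes an ELT-1 protein fused to eGFP, and the experiment is described as directed at that fusion. The antibody is listed under elt-1 only, so whether untagged ELT-1 was also captured is not recorded. There was 1 group with 2 biological replicates, and no untreated or mutant group. In whole larvae, binding in few cells and weak binding in many cells cannot be told apart.

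The authors' pooled list ranks 30000 regions by signal, with a median of 7.81, and the list thresholded by the irreproducible discovery rate, which compares ranks between replicates, keeps 351 of them. These 351 are called peaks here, and the weakest has a pooled signal of 24.6. They are the first 351 regions by pooled signal, so a peak need not be strong in each replicate. The first region of the pooled list lay in elt-1 itself. Read depth is unknown from these lists. A region was given to a gene when its summit lay from 2000 bp upstream of a transcript start to the gene's end. Values of a replicate are given as the fold of a region's signal over the median region of that replicate's own list, because the lists have different scales.

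Of the 59 ligand genes, 5 (8.47%) had a peak in this window, against 1.45% of all protein-coding genes. They were grd-13, grd-3 and grd-10, which are neighbours, and wrt-10 and wrt-6. The 5 genes held 5 distinct peaks in 3 of the 52 loci (5.77%). Outside the groundhog cluster, 2 of 56 members (3.57%) had a peak. By family, 2 of 10 warthog genes and 3 of 16 groundhog genes held a peak, and 0 of 31 ground-like genes did. With 1.45% of all genes holding a peak, a count of 0 among 31 is near the background.

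Windows around the summits are shown because they carry the peaks themselves. Each is written 5′ to 3′ on the strand of its gene, on ce11. Capitals mark a GATA site, which is AGATAA with A or T as its first base and A or G as its last, on either strand, so that a site on the other strand reads as its reverse complement. For wrt-10, whose summit lies in an untranslated exon, only 30 bases around the site are shown. The grd-10 window stops at the end of a site that runs 2 bases into the annotated transcript. The positions are chrIV:3438135-3438235 for grd-13, chrIV:3439541-3439641 for grd-3, chrIV:3440972-3441056 for grd-10, chrII:7534499-7534528 (minus strand) for wrt-10 and chrX:3482961-3483061 for wrt-6.
grd-13: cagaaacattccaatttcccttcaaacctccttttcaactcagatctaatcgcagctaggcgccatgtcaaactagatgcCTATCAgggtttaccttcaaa
grd-3: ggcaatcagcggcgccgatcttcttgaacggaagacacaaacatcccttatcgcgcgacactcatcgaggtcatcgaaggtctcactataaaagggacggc
grd-10: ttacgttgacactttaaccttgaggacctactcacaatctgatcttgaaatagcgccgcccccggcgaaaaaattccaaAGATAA
wrt-10: ctccccgcattcTTATCTatccccatcgtc
wrt-6: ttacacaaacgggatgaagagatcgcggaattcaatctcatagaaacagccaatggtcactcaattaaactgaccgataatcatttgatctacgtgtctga

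The groundhog cluster carried the strongest pooled signals among the ligand genes. In replicate 2 the wrt-10 peak, at 3.82-fold, stood above those of grd-10 (3.44-fold) and grd-13 (2.40-fold). grd-13 (WBGene00001702, chromosome IV from 3438312 to 3439507), grd-3 (WBGene00001692, 3439655 to 3440453) and grd-10 (WBGene00001699, 3441055 to 3441841) lie in this order on the plus strand. Each gene had a peak of its own just before its annotated start, with the summit 127 bp upstream of grd-13, 64 bp upstream of grd-3 and 33 bp upstream of grd-10. The summits were spaced by 1406 and 1431 bp. The peaks do not overlap, and the summit of the grd-3 peak sits in the 147 bp between grd-13 and grd-3, 84 bp past the end of grd-13. Reporters of grd-10 are in common use as markers of the seam cells, the stem-like cells of the lateral epidermis.

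The grd-3 peak (chromosome IV from 3439459 to 3439722) had a pooled signal of 49.5 and rank 65. Replicate 1 gave 5.81-fold and replicate 2 gave 4.40-fold, with a mean of 5.10 ± 1.0 (SD, n = 2). Its ranks in the replicates were 97 and 46, so it stood high in both. The grd-10 peak (3440890 to 3441153) had a pooled signal of 42.9 and rank 93, with 5.49-fold and 3.44-fold in replicates 1 and 2 and a mean of 4.47 ± 1.4 (SD, n = 2). Its replicate ranks of 115 and 106 were close to each other. The grd-13 peak (3438053 to 3438316) had a pooled signal of 42.0 and rank 101, with 6.29-fold in replicate 1 and 2.40-fold in replicate 2, a mean of 4.34 ± 2.7 (SD, n = 2). It was the strongest of the cluster in replicate 1, at rank 83, and the weakest in replicate 2, at rank 385. The order of the 3 peaks therefore differed between the replicates, and their means differed by less than the SD of each. Most thresholded peaks of the series had the higher fold in replicate 1. Each SD therefore also holds a difference between the lists, and is not the spread of the locus alone.

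The 3 peaks are separate in sequence. The longest exact run shared by a pair of the 264 bp peak intervals, on either strand, was 9 bases, and the longest run shared by the coding sequences was 10 bases. Identity in a global alignment was 58.0 to 61.0% between peak intervals and 67.5 to 74.8% between coding sequences. The coding sequences differ in length (306 to 543 bases), and no unrelated pair was aligned for comparison. The identities therefore do not show whether the coding sequences are more alike than the peaks. Across the 5530 bp that hold the windows of the 3 genes, the pooled list had 4 regions, 3 of them peaks, replicate 1 had 3 regions and replicate 2 had 5. The fourth pooled region, 338 bp inside grd-10, ranked only 27856. Of the 351 peaks, 72 had at least 1 other peak within 3000 bp. At least 2 others lay this close for 16 of the 351 (4.56%), and the cluster gives 3 of these 16. This measure was not among the planned results, and 3000 bp spans the 2837 bp between the outer summits of the cluster. The window of grd-10 also takes in the grd-3 peak and that of grd-3 the grd-13 peak, so the counts by gene are not independent.

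**Figure D1:**
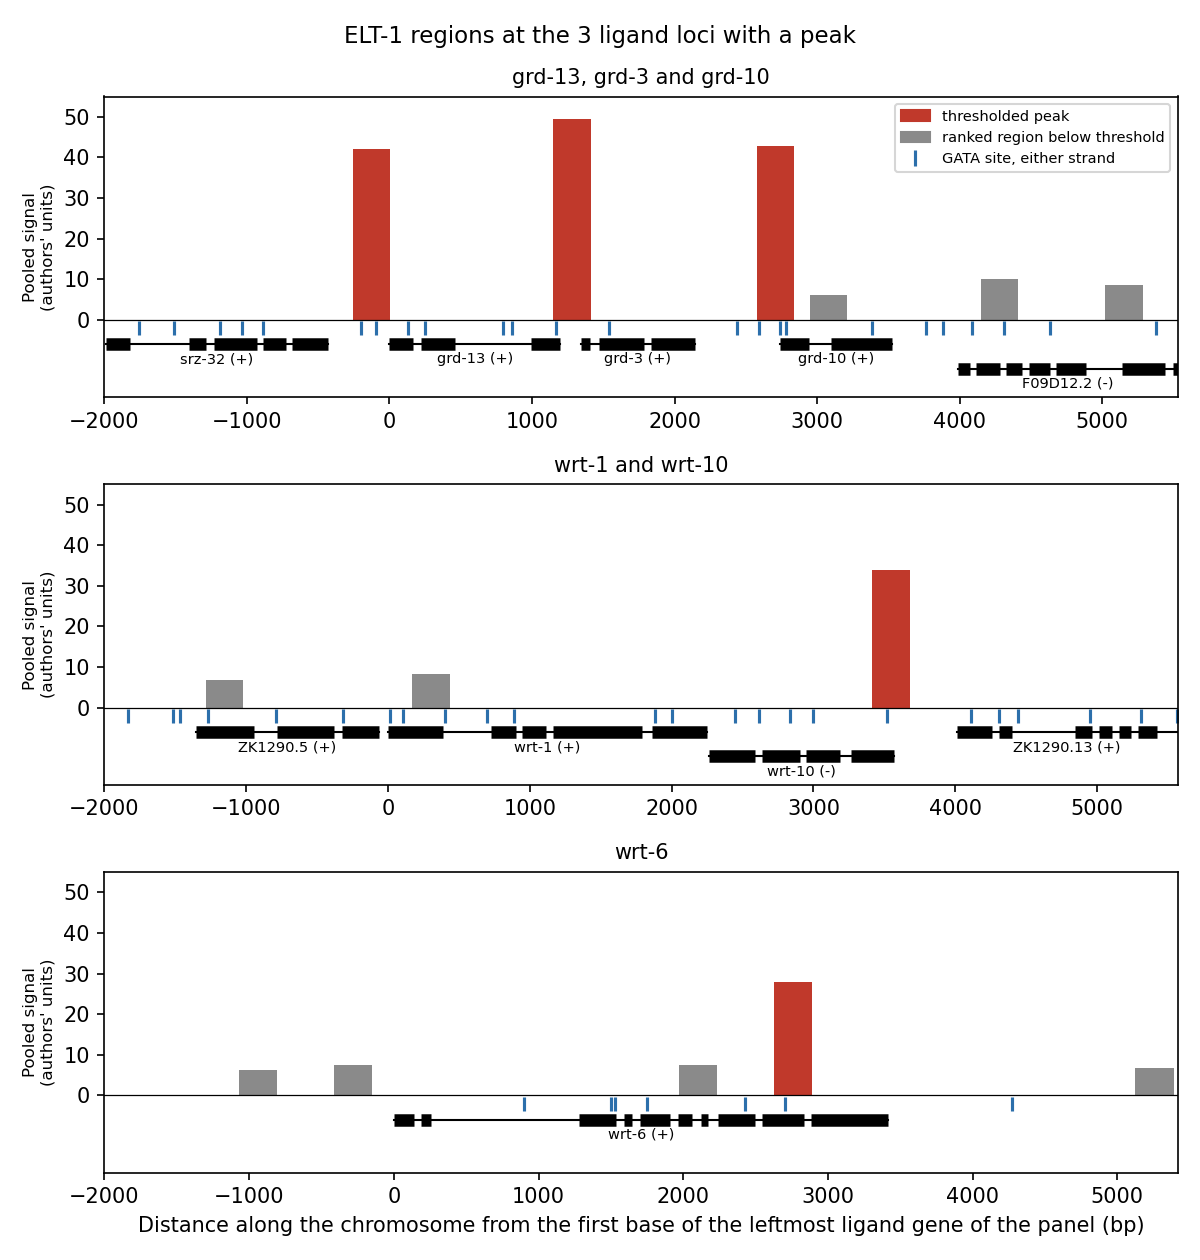
Maps of the 3 ligand loci that hold a peak. The x axis is the distance in bp from the first base of the leftmost ligand gene, bars give the pooled signal (y axis, authors' units) over the width of each region, black boxes are exons and blue ticks are GATA sites. The 3 groundhog genes each have a red bar of 42.0 to 49.5 at their start, wrt-10 has 1 of 33.8 at its start, and the bar of 28.0 at wrt-6 stands far inside the gene.

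wrt-10 (WBGene00006956, chromosome II from 7533262 to 7534563, minus strand), a warthog gene without a Hog domain, had a peak at its start. The peak (7534411 to 7534674) had its summit 20 bp past the annotated start, in an untranslated exon, a pooled signal of 33.8 and rank 164. It lay at 2.52-fold in replicate 1 and 3.82-fold in replicate 2, a mean of 3.17 ± 0.92 (SD, n = 2), with ranks of 637 and 81. Of the 4 ligand peaks matched in both replicates this was the only one with the higher fold in replicate 2. The 3 others had the higher fold in replicate 1, as most peaks did. By rank, however, the grd-3 peak (97 and 46) and the grd-10 peak (115 and 106) also stood higher in replicate 2. The wrt-10 peak falls outside the first 351 regions of replicate 1. The divergent neighbour ZK1290.13 begins 463 bp from the summit on the other side, so the peak lies within the window of that gene too. wrt-1, which encodes a Hog-domain warthog protein and ends next to wrt-10 tail to tail, had 2 ranked regions and its stronger, 302 bp inside the gene, had a signal of 8.39 and rank 11821.

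wrt-6 (WBGene00006952, chromosome X from 3480250 to 3483666, plus strand), a warthog gene with a Hog domain, held the weakest of the 5 peaks. Its peak (3482879 to 3483142) lay in a coding exon 2761 bp past the start, with a pooled signal of 28.0 and rank 257. In replicate 1 it stood at 4.54-fold and rank 163. Replicate 2 had no summit within 100 bp, and the nearest, 120 bp away, reached 1.25-fold and rank 7468. The peak therefore rests on replicate 1. Of the thresholded peaks placed in gene windows, 3.99% of gene and peak pairs lay in a coding exon.

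**Figure D2:**
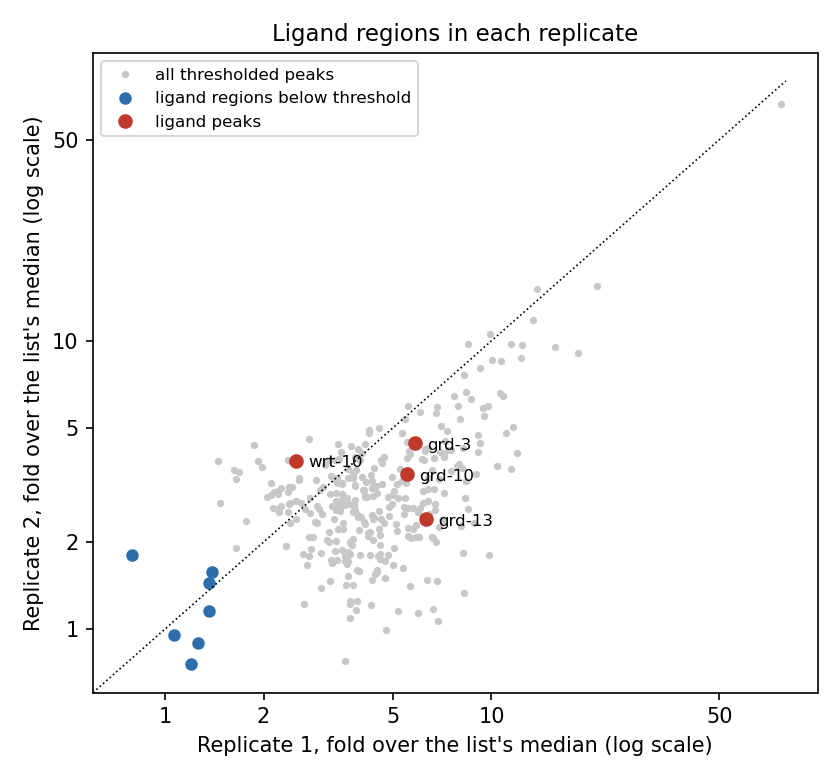
Fold over the median region of the list in replicate 1 (x axis) and replicate 2 (y axis), both on log scales, for thresholded peaks and ligand regions with a summit within 100 bp in both lists. The dotted line marks equal folds. The 3 groundhog peaks lie below the line and wrt-10 above it, the 7 weaker ligand regions stay below 2-fold in both replicates, and the wrt-6 peak is missing because replicate 2 has no match.

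Most ligand peaks sat at the start of a gene. Of the 5, 4 had their summit within 150 bp of an annotated transcript start, with wrt-6 the exception. The 4 are that of wrt-10 and those of the groundhog cluster, which share a locus. Of all 351 peaks, 42 (12%) lay as close to a start. Only 263 of the 351 lay in any gene window, as ligand peaks do by the rule, so the shares are not like for like. The 150 bp were chosen after these distances were seen. Many worm mRNAs are trans-spliced, so an annotated start can lie downstream of the true start of transcription. Of the 86 ligand regions below the threshold, 13 (15.1%) lay within 150 bp of a start, against 12.2% of such regions in the windows of all genes. By place, 38.2% of the gene and region pairs below the threshold at ligand genes were upstream, 25.8% in introns, 28.1% in coding exons and 7.87% in untranslated exons. The same shares over all genes were 39.2%, 28.1%, 27.4% and 5.29%. The median distance of all ligand regions from the most upstream start was 1073 bp.

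**Figure D3:**
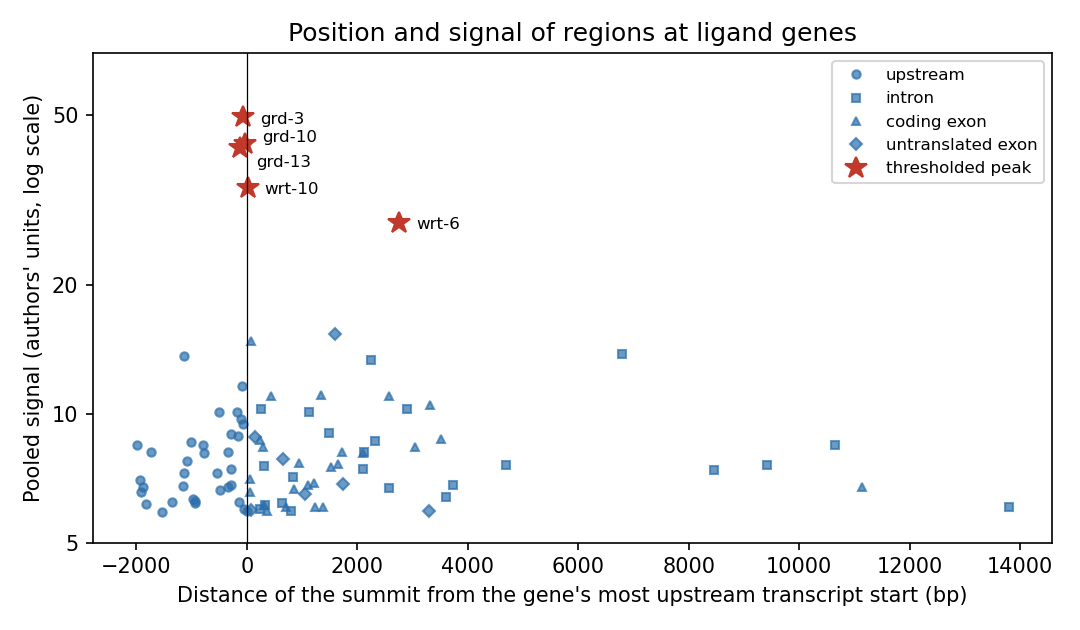
Pooled signal of every region at a ligand gene (y axis, authors' units, log scale) against the distance of its summit from the most upstream transcript start (x axis, bp, negative upstream). Red stars are the 5 peaks, each shown once at its nearest ligand gene, and 4 of them sit at the start, while the weaker regions spread over both sides and none exceeds a signal of 15.4.

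The 5 ligand peaks are too few to say whether GATA sites are as frequent there as at peaks in general. Within 50 bp of the summit, 3 of the 5 ligand peaks held a site, against 53.8% of all peaks. The sites were TGATAG at grd-13, AGATAA at grd-10 and AGATAA at wrt-10, the first and the last on the strand opposite to the gene. Their centres lay 32.5, 31.5 and 29.5 bp from the summit, in each case downstream of it on the gene's strand. The printed windows of grd-13 and grd-10 take in the summit, and the 30 bases of wrt-10 do not. Within 25 bp, 0 of the 5 peaks held a site, against 32.2% of all peaks, a contrast that 5 peaks are too few to read. The nearest site to the grd-3 summit lay 111.5 bp upstream of it and that of wrt-6 58.5 bp upstream, which is why their windows have no capitals. The bare core GATA occurred within 50 bp in all 5 peaks, and in 82.6% of all peaks. Of the 86 ligand regions below the threshold, 12 (14%) held a full site within 50 bp, against 20.3% of such regions in the windows of all genes.

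Most ligand genes had a region in the ranked list, as most genes do. A ranked region lay in the window of 44 of 59 members (74.6%), against 74.4% of all genes, so the ligand genes match the background in this. The window had a median length of 3784 bp for ligand genes and 4027 bp for all genes. The share was 9 of 10 for wrt, 13 of 16 for grd and 20 of 31 (64.5%) for grl, whose windows had a median length of 3301 bp. The strongest region per gene had a median signal of 8.93 over the 44 members and 8.89 over all genes with a region. Its median was 11 for wrt, 11.1 for grd and 7.98 for grl.

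**Figure D4:**
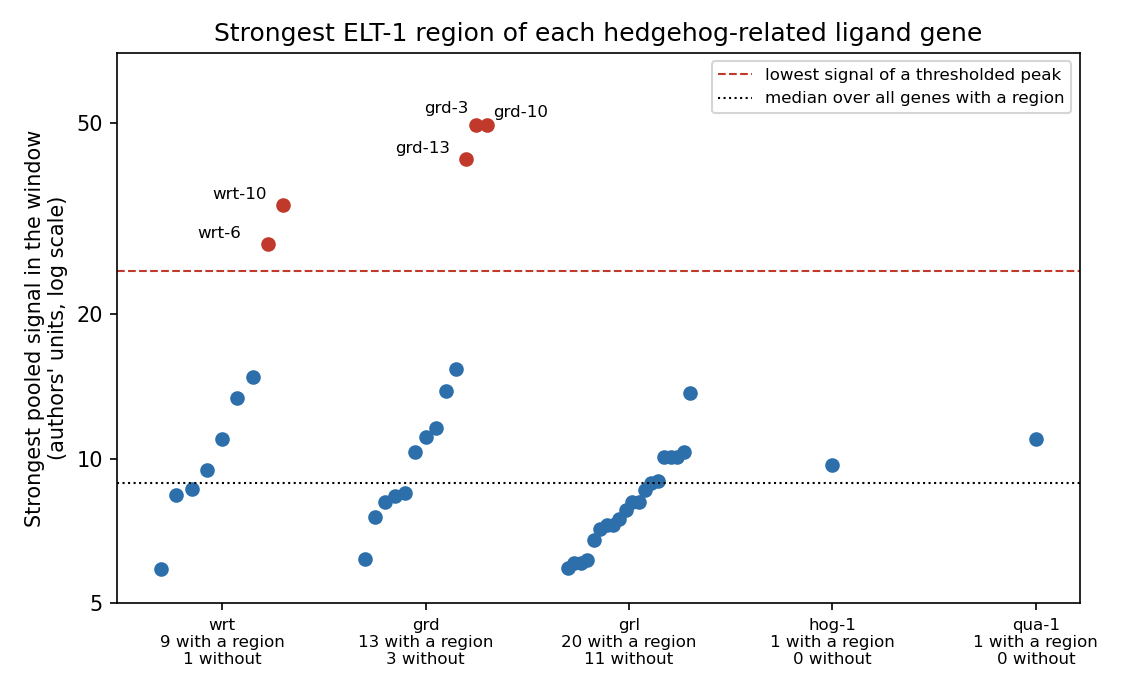
Strongest pooled signal in the window of each ligand gene that has a region (y axis, authors' units, log scale), by family, with genes ordered by signal within a family. Red points are genes with a peak. The 5 red points lie between 28.0 and 49.5, and the other 39 genes lie between 5.90 and 15.4 with no gene between these ranges. The point of grd-10 is the grd-3 peak, the stronger of the 2 in its window.

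In the pooled list, the first region at a member after the peaks ranked 1089. From rank 352 to rank 1000, 0 of 59 members had their strongest region, against 2.98% of all genes, which for 59 genes is near the background. In replicate 1 alone, a region in a coding exon of the Hog-domain gene wrt-7 stood at rank 738 and 2.39-fold, close to the rank 637 and 2.52-fold of the wrt-10 peak there. It had no match in replicate 2 and pooled rank 4311, and it is named after its values were seen. The 5 next members in the pooled order were grd-7, wrt-2, grd-11, grl-13 and wrt-9. The groundhog gene grd-7 (chromosome X) had a signal of 15.4 in an untranslated exon 1601 bp past its start, matched in replicate 2 alone at 1.32-fold. wrt-2 (chromosome X) had 14.8 in a coding exon 79 bp past its start, with 0.789-fold in replicate 1 and 1.80-fold in replicate 2, a mean of 1.30 ± 0.72 (SD, n = 2). grd-11 (chromosome V), a Hog-domain gene, had 13.8 in an intron, with 1.36-fold and 1.44-fold and a mean of 1.40 ± 0.063 (SD, n = 2). grl-13 (chromosome V) had the highest ground-like value, 13.7 at 1132 bp upstream, matched in replicate 1 alone at 1.91-fold. wrt-9 (chromosome X) had 13.4 in an intron, with 1.39-fold and 1.58-fold and a mean of 1.49 ± 0.13 (SD, n = 2). Of these, grd-11 and wrt-9 gave close values in both replicates, wrt-2 was below the median in one, and grd-7 and grl-13 were matched in one alone.

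The weaker regions seldom recurred between replicates. Of the 86 distinct ligand regions below the threshold, 7 (8.14%) had a summit within 100 bp in both replicates, 21 in replicate 1 only, 33 in replicate 2 only and 25 in neither, against 12.4% in both for such regions over all genes. Of the 5 peaks, 4 were matched in both, and 94.6% of all peaks were. Among the first 351 regions of replicate 1 were regions of 4 members, grd-13, grd-3, grd-10 and wrt-6, where 1.47% of all genes had one. Among the first 351 of replicate 2 were regions of 3 members, grd-3, grd-10 and wrt-10, against 1.61% of all genes. Only grd-3 and grd-10 stood in both.

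The other members are accounted for by signal. Those with a strongest signal from 10 to 13 were grd-4 (11.6, at 86 bp upstream), grd-6 (11.1), grd-1 (10.3), qua-1 (11) and wrt-7 (11). The ground-like genes in this range were grl-17, grl-16, grl-15 and grl-1 (10.1 to 10.3). The strongest regions of grd-4, grl-15 and grl-1 had a GATA site within 50 bp. That of grd-4 was matched in replicate 2 alone, at 1.95-fold. qua-1 is required for molting, and its strongest region lay in a coding exon 2583 bp past the start at rank 4201. Those below 10 were hog-1 (9.71, 97 bp upstream), wrt-5 (9.45), wrt-3, wrt-1 and wrt-8, grd-14, grd-2, grd-16, grd-12 and grd-9, and grl-7, grl-25, grl-22, grl-8, grl-9, grl-21, grl-2, grl-26, grl-31, grl-3, grl-23, grl-6, grl-10, grl-20 and grl-24, down to 5.90 at wrt-8. No region of the pooled list lay in the windows of 15 members, wrt-4, grd-5, grd-8, grd-15, grl-4, grl-5, grl-11, grl-12, grl-14, grl-18, grl-19, grl-27, grl-28, grl-29 and grl-30. Of these, grd-5, grd-15, grl-4 and grl-28 had none in the list of either replicate as well. A gene without a ranked region has no measured value here, which does not show that it is unbound.

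Counts by Hog domain and by chromosome were small. Of the 10 members known to carry a Hog domain, 1 (wrt-6) had a peak, and of the 49 others 4 did, 3 of them in the groundhog cluster, beside 1.45% of all genes. This grouping was made after the values were seen. By chromosome, 28 members lie on V and 0 of them had a peak, against 0.661% of all genes on V, so this count is near the background. Of the 12 members on IV, 3 had a peak, against 1.46% of all genes there, and these are the 3 neighbours. Of the 10 on X, 1 had a peak, against 2.82% of all genes there, and of the 3 on II, 1 did, against 1.54%. Members on the other chromosomes had none. The other loci with several members held no peak, namely grl-29, grl-30 and grl-31, grl-9 and grl-8, and grd-14 and grd-4.

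Of the other genes of the pathway, 3 of 34 (8.82%) had a peak in the same kind of window, against the 1.45% of all genes. These windows are long, with a median of 8153 bp against 4027 bp for all genes, and 33 of 34 (97.1%) held a ranked region against 74.4% of all genes, so the shares are not like for like. The list held the patched and patched-related genes (with daf-6, che-14 and ptd-2), the Niemann-Pick type C homologues ncr-1 and ncr-2, the acyltransferase homologues hhat-1 and hhat-2 and the GLI homologue tra-1. All 3 peaks were at patched-related genes. The one at ptr-23 lay in an intron, with a pooled signal of 70.3, and reached 11.5-fold in replicate 1 and 3.60-fold in replicate 2. The one at ptr-18 lay 219 bp upstream with 45.0, at 4.21-fold and 4.80-fold. That at ptr-12 lay in an intron with 26.5 and was matched in replicate 1 alone, at 4.87-fold. ptc-1 and ptc-3, the patched genes, had strongest signals of 11.7 and 8.93, and tra-1 had 10.1, all below the threshold.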

How the data were processed

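The authors deposited region lists in which each region has a signal value, and depth per sample is not recorded in them. The deposited listing gives the ranked lists as made from each replicate's alignments, or from both pooled, with a control, and the thresholded peaks as selected by the irreproducible discovery rate. Aligner, peak caller and threshold were not given in the sources used here. Signal was read from the ce11 lists only. Genes came from Ensembl release 115 for WBcel235, the same assembly as ce11, and sequences from the RefSeq FASTA of WBcel235.

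Region summits were assigned to gene windows, matched between lists within 100 bp and searched for GATA sites with Python 3.11.15 and pandas 2.3.3. These steps were tested on simulated data, and the global alignment of the groundhog cluster was not. For matching and site search the tests could reveal only missed matches and missed sites, not false ones. Biopython 1.88 was also among the tools. No test was run: counts stand beside the same counts over all genes. The members and lists were chosen with earlier results of these data known. Values are given by rule for members with a peak and their neighbours, for the next members by signal up to 10 and for pathway genes with a peak. All other members are listed by name with ranges. wrt-7 and the pathway genes ptc-1, ptc-3 and tra-1 were added after their values were seen.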

Additional observations from a re-analysis of the deposited data

How the results depend on the processing

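The count of ligand genes with a peak was 4 or 5, and the loci 2 or 3, with windows from 1000 or 5000 bp upstream, a promoter window, the nearest transcript start, any overlap, the upper 176 peaks or the first 1000 regions. wrt-6 was lost with the promoter window and with the upper 176 peaks. With the first 351 regions of a replicate alone the count was 3 or 4, without grd-13 and wrt-6 in replicate 2 and without wrt-10 in replicate 1. Outside the groundhog cluster it was 2, an alternative chosen after seeing the data. The pathway count was 1 with the promoter window and 6 with the first 1000 regions. Over all genes, 2.98% had their strongest region from rank 352 to 1000, besides the 1.45% with a peak. Shares over all genes were not computed for the other windows or the upper 176 peaks. The ligand and pathway counts with these settings therefore have no matching background. The median strongest region lay at 1.14-fold in the pooled list and at 1.20 and 1.29-fold in the replicates' lists. Regions matched in both replicates numbered 11, and 21 within 250 bp. A GATA site lay by 15 of the 91 ligand regions, by 30 within 100 bp, by 5 for AGATAA alone and by 49 for the bare core. The shares over all peaks were 53.8%, 66.4%, 33.6% and 82.6% in the same order. They are not like for like, because only 5 of the 91 ligand regions are peaks. No share over all ranked regions was computed for these alternatives. Causes were not tested. Unknown read depth and 2 replicates limit every value.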

Other observations

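The 3 groundhog windows shared a word that was noticed after they were printed. GCGCC, on either strand, occurred within 50 bp of the summit at grd-13, grd-3 and grd-10, and not at wrt-10 or wrt-6. It occurred in 46 of all 351 peaks (13.1%), in 5.33% of the 30000 ranked regions and in 4 of the 91 ligand regions (4.40%). The 3 groundhog peaks are counted in each of these shares, and are 3 of the 4 ligand regions. The window of grd-3 had 53.5% G and C, that of grd-13 42.6% and that of grd-10 40.6%, against a median of 42.6% over all peaks and 37.6% over ranked regions. The 3 genes are neighbours of 1 family, so the windows are not independent cases.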
